A study of Mus musculus with 29 samples.

Results

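The genes described here are 10 of the 38124 genes counted in a sequencing study of mouse liver and hindlimb muscle. They are 4 fatty acid desaturases (Fads1, Fads2, Fads3 and Fads6), 5 fatty acid elongases (Elovl1, Elovl2, Elovl3, Elovl5 and Elovl7) and the stearoyl-CoA desaturase Scd2. They were chosen by symbol with earlier results of these data known, and all 10 had enough reads to be tested in both tissues. All mice were male C57BL/6, an inbred laboratory strain, purchased when 14 weeks old and randomised to a diet when 4 months old. Control mice were given 95% of ad libitum intake, or 13.6 kcal a day. Under calorie restriction 3 further groups were given 60%, or 8.6 kcal a day, and differed in their named fat, which was lard, fish oil or soybean oil. The sources used here do not name the control diet's fat. RNA came from whole tissue of 16 mice, in 15 liver libraries (3 control, 4 soy, 4 fish and 4 lard) and 14 muscle libraries (4 control, 3 soy, 3 fish and 4 lard).

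Long polyunsaturated fatty acids of the omega-3 and omega-6 series are made in liver from shorter plant-derived precursors by alternating desaturation and elongation. Fads2 acts at the start of this route and Fads1 at a later step, while Elovl5 and Elovl2 lengthen the chain between and after these steps. In liver, expression of Fads1, Fads2 and several elongases is known to be driven by the transcription factor SREBP-1c and held down by dietary polyunsaturated fat. Fish oil supplies the long omega-3 end products directly, soybean oil supplies mainly their precursors and the omega-6 precursor, and lard is rich in saturated and monounsaturated fat.

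Levels are given in CPM, counts on a gene's exons scaled to a fixed total of exon reads per library, and each library is 1 mouse. Libraries held 11315231 to 27106865 exon reads. Several libraries stood apart. Soy livers 1073 and 1159 had 5.47% and 5.41% of their gene reads outside exons, against 7.90% to 8.92% in the other 13 livers. Fish liver 1123 held 2327 CPM of 6 muscle fibre markers, against 111.9 to 239.8 CPM in the other livers. Fish muscle 1124 carried skin markers and soy muscle 1073 carried fat and nerve sheath markers, with values given beside the genes they touch. Control muscles 1120 and 1071 held 1089 and 255.4 CPM of 6 neutrophil markers, none of them at 0, against 0.184 to 2.46 CPM in the other 12 muscles, and 7658 and 1982 CPM of 6 erythroid markers, against 219.0 to 1082 CPM. With both left out, 0 of the 10 genes were called between diets in muscle. Hepatocyte markers summed to 90460 to 151100 CPM in liver and muscle fibre markers to 90090 to 182300 CPM in muscle. In whole tissue, fewer cells of a type and less RNA per cell cannot be told apart.

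Fish oil livers held less RNA of the main polyunsaturated route than lard livers, and soy livers lay between or beside them, in differences that did not pass the adjusted test. Against lard, Fads2 was 2.23-fold, Fads1 1.92-fold, Elovl5 1.73-fold and Elovl2 1.64-fold lower, while Elovl3 was 2.08-fold, Elovl7 1.88-fold and Scd2 1.47-fold higher. None of the 10 genes passed the test after adjustment over all 12788 liver genes (edgeR quasi-likelihood F test, adjusted p under 0.05), in fish oil against lard (0.203% of all genes passed), against soybean oil (0.0938%), against control (0.383%) or against the mean of soybean oil and lard (0.344%). At an unadjusted p under 0.05, 8 of 10 differed between fish oil and the mean of soybean oil and lard, against 15.8% of all genes. Of these 5 were lower (Fads1, Fads2, Fads3, Elovl2 and Elovl5, background 7.54%) and 3 higher (Elovl3, Elovl7 and Scd2, background 8.3%). Elovl7 lay at 0.52 to 1.15 CPM in fish oil and at most 0.45 in soy, 0.43 in control and 0.88 in lard. The filter on low counts kept it mainly through the fish livers, so it is not support in any fish oil count given here. At the same unadjusted threshold 8 of 10 differed between fish oil and lard (background 9.98%), 8 between fish oil and control (8.93%) and 5 between fish oil and soybean oil (23.1%). The DESeq2 Wald test called 4 of them against lard (1.28% of all genes), 3 against control (1.29%) and 1 against soybean oil (5.75%), and limma-voom called Fads1 against lard (0.235% of all genes). Against the mean of soybean oil and lard the median log2 fold change of the 10 was -0.35, beside 0.01 over all genes. The fish oil comparisons share the same 4 fish livers, so they are not separate evidence. The 10 genes were chosen with earlier results of these data known, so their counts beside the shares of all genes are not independent support.

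**Figure D1:**
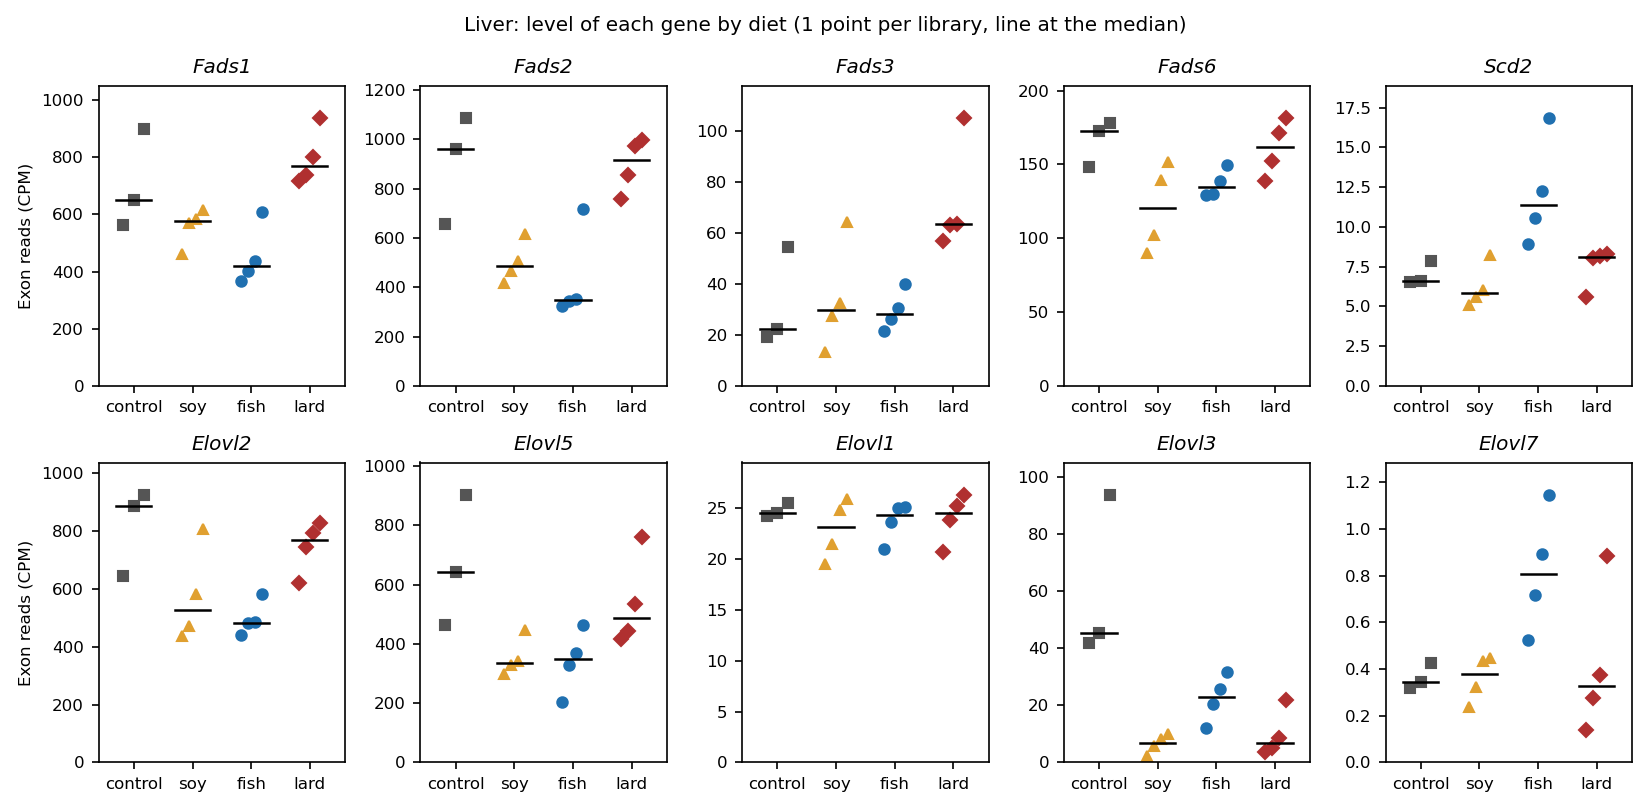
Level of each gene in CPM (vertical axis, linear and starting at 0) in 15 livers by diet, with 1 point per library and a line at the median. Fads1 and Fads2 are low in fish oil livers apart from one fish liver at 717.1 CPM of Fads2, and Elovl3 is high in control livers and lowest in soy and lard livers.

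Fads1, Fads2 and Fads3 lie side by side on chromosome 19 (GRCm38): Fads3 at chr19:10041548-10059671 on the plus strand, Fads2 at chr19:10064164-10101503 on the minus strand, and Fads1 at chr19:10182888-10196870 on the plus strand. Fads3 and Fads2 are 4492 bases apart, and Fads2 and Fads1 81384 bases. Fads2 encodes the desaturase that acts on the precursors. In liver its level was 657.5, 961.9 and 1086 CPM in control, 616.0, 464.6, 507.0 and 416.2 in soy, 326.1, 343.2, 352.3 and 717.1 in fish oil, and 757.9, 856.0, 998.0 and 974.9 in lard. Every fish liver was below every lard liver, as was also seen for Fads1, Fads3 and Elovl2 and for 1.49% of all genes. In addition 3 of the 4 fish livers were below all livers of other diets, while fish liver 1125 lay above all soy livers. The log2 fold change of Fads2 was -1.16 ± 0.26 (SE) against lard (edgeR adjusted p = 0.0814), -1.09 ± 0.27 against control (adjusted p = 0.122) and -0.37 ± 0.25 against soy (adjusted p = 0.381). Without fish liver 1125 Fads2 passed the same test against lard (-1.56, adjusted p = 0.00451), against control (-1.49, adjusted p = 0.00398) and against the mean of soybean oil and lard (-1.16, adjusted p = 0.0128). Without that liver 0.102%, 0.353% and 0.204% of all genes passed in these comparisons. Of the 15 fits with 1 liver left out, no other called Fads2 in any of them, and the liver left out held the highest Fads2 of its group. Mouse 1125 is the one whose muscle library the authors discarded, per the series text, while its liver library was kept.

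Fads1 encodes the desaturase of the later step. Its level was 561.8, 649.8 and 897.3 CPM in control, 616.9, 570.2, 583.7 and 460.0 in soy, 365.7, 401.9, 437.6 and 608.2 in fish oil, and 737.3, 717.9, 801.0 and 936.7 in lard. The fish and lard livers did not overlap, and the highest fish liver was again 1125. For Fads1 the log2 fold change was -0.94 ± 0.19 against lard (edgeR adjusted p = 0.0632), -0.67 ± 0.20 against control (adjusted p = 0.275) and -0.47 ± 0.19 against soy (adjusted p = 0.162). Without fish liver 1125 Fads1 passed against lard (-1.15, adjusted p = 0.0243) and against the mean of soybean oil and lard (-0.92, adjusted p = 0.026). Of the 15 fits with 1 liver left out, only that without control liver 1095 also called Fads1 against lard. No other called it against the mean. Over the 15 livers Fads1 and Fads2 tracked each other more closely than either tracked any other of 9207 genes (Pearson r = 0.94, Spearman rho = 0.93 on log2 CPM), a description of libraries that share diets and mice. The other genes closest to Fads1 were Nadk (r = 0.88) and Elovl6 (r = 0.88), and those closest to Fads2 were Pgm3 (r = 0.91) and Bloc1s6 (r = 0.90).

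Fads1 and Fads2 also separated lard from soybean oil, with every lard liver above every soy liver. Of all genes 1.96% lay higher in lard without overlap, and none passed the adjusted test in that comparison (0.0%). Fads2 was 1.73-fold higher in lard (log2 0.79 ± 0.25, unadjusted p = 0.00719, edgeR adjusted p = 0.229), and Fads1 1.38-fold (log2 0.46 ± 0.19, adjusted p = 0.254). At an unadjusted p under 0.05 there were 5 of the 10 genes higher in lard than in soy (Fads1, Fads2, Fads3, Fads6 and Elovl5; background 6.08%) and 0 lower (background 11.2%). In the authors' deposited table the unadjusted p-values for soy against lard liver were 0.00118 for Fads2 and 0.00592 for Fads1, and for lard against fish liver 0.00734 and 0.00333.

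Fads3, a desaturase of sphingoid bases and some monounsaturated acids, had its own pattern. Its level was 54.64, 22.24 and 19.10 CPM in control, 64.18, 32.35, 27.32 and 13.21 in soy, 30.60, 21.57, 26.18 and 39.92 in fish oil, and 56.96, 63.35, 105.1 and 63.46 in lard. All 4 lard livers were above all fish and all control livers (3.32% of all genes lay higher in lard than in control without overlap), but 1 soy liver was as high as lard. The log2 fold change was -1.41 ± 0.40 for fish oil against lard (edgeR adjusted p = 0.201) and 1.29 ± 0.43 for lard against control (adjusted p = 0.246). Fads6, a member of the family whose substrate is less well known, lay between 89.96 and 181.3 CPM over the 15 livers and was 1.29-fold lower in fish oil than in lard (log2 -0.36 ± 0.14, adjusted p = 0.403).

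Promoter windows of 7 of the 10 genes were matched in the RefSeq table (GRCm38.p6), and Fads1, Elovl3 and Scd2 were not. The 250 bases before the start site of Fads2 are shown because Fads2 is the closest relative of Fads1, which had the smallest p of the 10 in fish oil against the mean of soybean oil and lard; those of Elovl2 and Elovl5, the elongases of the same route, were added after their values were seen. They stand at chr19:10101504-10101753 (minus strand), chr13:41220404-41220653 (minus strand) and chr9:77917115-77917364 (plus strand), 5′ to 3′ on the gene's strand. Capitals mark the motifs found.
Fads2: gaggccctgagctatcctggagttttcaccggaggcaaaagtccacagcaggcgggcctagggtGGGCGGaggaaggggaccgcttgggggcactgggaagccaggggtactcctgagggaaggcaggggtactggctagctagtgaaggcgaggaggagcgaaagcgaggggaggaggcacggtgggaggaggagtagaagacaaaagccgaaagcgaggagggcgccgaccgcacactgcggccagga
Elovl2: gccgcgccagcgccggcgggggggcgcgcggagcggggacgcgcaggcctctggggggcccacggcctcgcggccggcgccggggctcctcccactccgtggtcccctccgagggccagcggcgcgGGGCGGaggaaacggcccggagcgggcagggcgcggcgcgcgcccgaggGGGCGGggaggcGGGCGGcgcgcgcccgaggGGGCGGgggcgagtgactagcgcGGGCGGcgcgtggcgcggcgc
Elovl5: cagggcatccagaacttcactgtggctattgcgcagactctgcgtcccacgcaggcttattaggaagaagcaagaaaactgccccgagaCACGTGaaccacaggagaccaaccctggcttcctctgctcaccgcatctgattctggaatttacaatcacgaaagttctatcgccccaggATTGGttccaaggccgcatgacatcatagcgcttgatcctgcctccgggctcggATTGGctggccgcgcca
The Fads2 window held a GC box (GGGCGG, read on both strands) and the Elovl2 window 5 of them, against 35.7% of 32851 RefSeq promoter windows of 300 bases with at least 1. The Elovl5 window held an E-box (CACGTG, 7.15% of all windows) and a pair of NF-Y boxes (CCAAT or its complement, 37.4%). NF-Y boxes were also matched for Elovl1 and Fads3, and GC boxes for Elovl1, Elovl7, Fads3 and Fads6. The sterol regulatory element TCACNCCAC, present in 1.24% of all windows, was matched in none of the 9 windows of these genes, nor were direct repeats of AGGTCA spaced by 4 bases (0.0152%) or 1 base (0.0396%). These are letter matches in short windows, and a motif outside the window was not looked for.

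The elongases of the polyunsaturated route had lower means in fish oil than in control and lard livers, and neither difference passed the adjusted test. Elovl2 (chr13:41182495-41220405, minus strand), which lengthens the longest of these chains, had 925.2, 645.4 and 885.5 CPM in control, 583.6, 470.9, 805.8 and 435.3 in soy, 441.9, 483.6, 482.6 and 581.3 in fish oil, and 742.6, 618.7, 791.8 and 826.0 in lard. Fish livers lay below all control livers (as did 5.19% of all genes) and all lard livers, and inside the range of soy livers. For Elovl2 the log2 fold change was -0.75 ± 0.18 against control (edgeR adjusted p = 0.0888), -0.71 ± 0.17 against lard (adjusted p = 0.108) and -0.37 ± 0.16 against soy (adjusted p = 0.195). Genes closest to Elovl2 over the livers were Prrc1 (r = 0.91), Slc26a1 (r = 0.86) and Rab1a (r = 0.83).

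Elovl5 (chr9:77917364-77984519, plus strand) lengthens the intermediates. It had 904.1, 463.9 and 641.6 CPM in control, 299.7, 342.3, 448.1 and 328.5 in soy, 202.5, 464.6, 329.5 and 370.2 in fish oil, and 417.9, 443.2, 761.8 and 534.0 in lard. Soy livers were below all control livers (as were 11.3% of all genes), and fish livers overlapped every other group. Elovl5 had a log2 fold change of -0.99 ± 0.27 for fish oil and -0.75 ± 0.27 for soybean oil against control (edgeR adjusted p = 0.169 and 0.134), and -0.79 ± 0.25 for fish oil against lard (adjusted p = 0.288). Ubxn4 (r = 0.90), Stx6 (r = 0.82) and Elovl2 (r = 0.81) were the genes nearest to it.

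The test used affected the number of calls. With the DESeq2 Wald test 4 of the 10 genes passed in fish oil against the mean of soybean oil and lard, where 2.21% of all genes did: Fads1 (adjusted p = 0.00425), Elovl2 (0.0173) and Fads2 (0.0377) fell, and Scd2 (0.0205) rose. The same test called Fads1, Fads2, Fads3 and Elovl2 lower in fish oil than in lard, Fads2, Elovl2 and Elovl5 lower than in control, and Scd2 higher than in soy. In a fit of the fish and lard livers alone with edgeR, Fads1 (adjusted p = 0.0431), Fads3 (0.0351) and Elovl2 (0.0399) passed and Fads2 did not (0.0754), while 1.1% of all genes passed. Of the alternatives of tool, filter, scaling, block and left-out liver that were run, none turned the direction of Fads1, Fads2, Elovl2 or Elovl5 in exon reads in any fish oil comparison in liver.

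**Figure D2:**
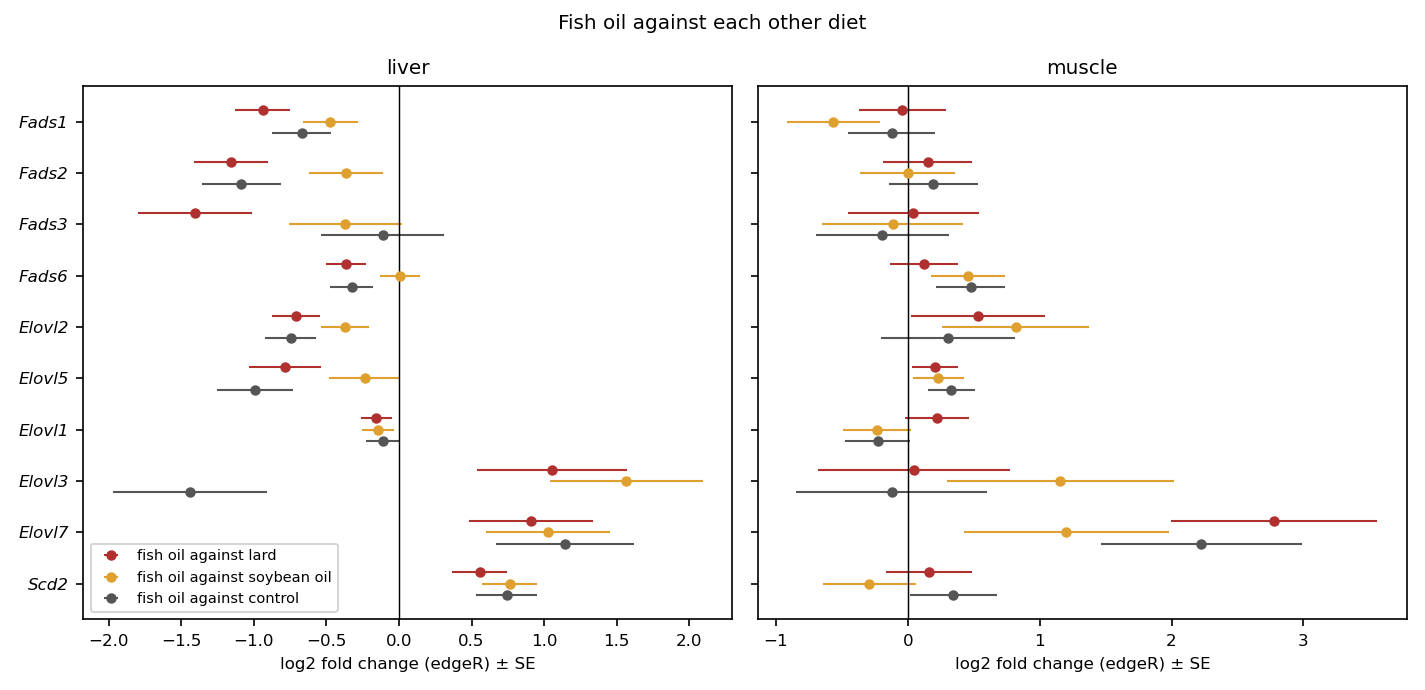
Log2 fold change with SE (horizontal axis; edgeR) of the 10 genes in fish oil against lard, soybean oil and control, in liver (left) and muscle (right). In liver the desaturases Fads1 and Fads2 and the elongases Elovl2 and Elovl5 lie left of 0 against all 3 diets; in muscle most genes lie within 1 log2 unit of 0, and Elovl7 lies right of 0 against all 3 diets.

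Reads inside the genes but outside annotated exons, mostly from introns, were compared in the same way, and 7 of the 10 genes had enough of them in liver. None passed the adjusted test (0.0174% of 11497 genes did), and 1 of 7 had an unadjusted p under 0.05 (background 9.21%). That gene was Fads3, with a log2 fold change of -1.46 ± 0.46 in fish oil against the mean of soybean oil and lard (unadjusted p = 0.00493, edgeR adjusted p = 0.361). Fads3 passed with edgeR when genes of low counts were also kept (adjusted p = 0.0399), a fit whose share of all genes called is not given here. Fads3 had unusually many reads outside exons, 499 beside 481 on exons in fish liver 1067 and 1240 beside 1212 in lard liver 1100. Fads1 had 319 beside 5748 in fish liver 1067. The source of these Fads3 reads was not tested. In the same comparison the log2 fold changes were -0.44 ± 0.27 for Fads1, -0.44 ± 0.37 for Elovl5, -0.23 ± 0.33 for Elovl2 and -0.14 ± 0.24 for Fads2. Soy livers 1073 and 1159 stood apart in this measure. They held 139 and 95 such reads of Fads1, against 609 and 404 in soy livers 1065 and 1141. The comparison was not repeated without both, so it cannot show whether reads outside exons follow those on exons.

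Elovl3 (chr19:46131897-46135694, plus strand), an elongase of saturated and monounsaturated chains, was the only one of the 10 to pass the adjusted test between diets. It had 93.69, 45.44 and 41.73 CPM in control livers, 8.11, 5.64, 2.24 and 10.03 in soy, 31.62, 12.11, 20.31 and 25.59 in fish oil, and 8.60, 21.92, 3.54 and 4.98 in lard. All 12 restricted livers were below all 3 control livers, as were those of 11.3% of all genes for soy, 5.19% for fish oil and 12.7% for lard. All fish livers were above all soy livers, as for 9.34% of all genes. In soy against control it fell 8.04-fold (log2 -3.01 ± 0.56, edgeR adjusted p = 0.0181), where 0.766% of all genes were called lower and 1.17% called in either direction. This call was lost without control liver 1095 (adjusted p = 0.0596), without control liver 1120 (0.0557) and without soy livers 1073 and 1159 together (0.0738), with log2 fold changes of -2.62, -3.14 and -3.39.

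In lard against control Elovl3 was 5.64-fold lower (log2 -2.50 ± 0.55, edgeR adjusted p = 0.0662; background called 0.508%; adjusted p = 0.0373 with limma-voom and 0.0128 without lard liver 1102), and in fish oil against control 2.71-fold lower (log2 -1.44 ± 0.53, adjusted p = 0.404). Fish oil livers held 2.97-fold more Elovl3 than soy livers (log2 1.57 ± 0.53, adjusted p = 0.124) and 2.08-fold more than lard livers (adjusted p = 0.521). The genes of most similar pattern over the livers were Cyp4a12b (r = 0.91), C6 (r = 0.90) and Cyp4a12a (r = 0.89). The Cyp4a12 genes, fatty acid hydroxylases, are known for higher expression in male than in female mouse liver. Cyp4a12a averaged 107.1 ± 58.5 CPM (SD, n = 3) in control, 5.35 ± 1.65 (n = 4) in soy, 26.3 ± 16.9 (n = 4) in fish oil and 14.4 ± 13.5 (n = 4) in lard. Of 12 listed genes of male-biased liver expression, 6 fell in soy, 2 in fish oil and 3 in lard against control, with median log2 fold changes of -3.36, -1.72 and -2.65 (0.766%, 0.305% and 0.328% of all genes fell). Of 9 tested female-biased genes, 4, 2 and 4 rose, Cyp2b13 in all 3 diets (0.399%, 0.0782% and 0.18% of all genes rose). Both lists were chosen with earlier results of these data known, so the counts beside these shares are not independent support. The 6 in soy include Cyp4a12a with Cyp4a12b and Mup7 with Mup17, pairs of the same gene families, so they are not 6 separate results. The counts also depended on single livers. Without control liver 1121, 0 of the male-biased calls remained in fish oil and in lard, nor did any without fish liver 1124 in fish oil or without lard liver 1100 in lard, and 2 of the 6 in soy remained without control liver 1120. Of the female-biased calls 0 remained in fish oil without control liver 1120 or 1121 and 0 in lard without control liver 1121, and 2 of the 4 in soy when any single one of the 3 control livers was left out.

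Scd2 and Elovl7 had their highest mean in fish oil livers, at 12.1 ± 3.42 and 0.820 ± 0.265 CPM (SD, n = 4). Scd2 (chr19:44293676-44306864, plus strand) introduces unsaturation into saturated acyl chains, and in adult liver is minor beside Scd1. It had 6.52, 6.59 and 7.88 CPM in control, 8.26, 5.11, 6.05 and 5.61 in soy, 10.56, 12.23, 16.84 and 8.91 in fish oil, and 5.59, 8.18, 8.04 and 8.30 in lard. Every fish liver was above all 11 other livers, as 4.01% of all genes were against soy and lard. The log2 fold change of Scd2 was 0.66 ± 0.16 against the mean of soybean oil and lard (edgeR adjusted p = 0.0929), 0.76 ± 0.19 against soy (adjusted p = 0.107), 0.56 ± 0.19 against lard (adjusted p = 0.335) and 0.74 ± 0.21 against control (adjusted p = 0.208). It passed against the mean of soybean oil and lard without soy liver 1065 (adjusted p = 0.0353), where 2.02% of all genes passed, and against soy (adjusted p = 0.017), where 16.4% did.

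Dmpk, Cd300a and Stx17 were the genes most like Scd2 over the livers (r = 0.85, 0.84 and 0.82). Beside Scd2, 6 macrophage markers summed to 334.9 to 534.1 CPM in fish livers and 257.8 to 418.4 CPM in the others, with none at 0 in any liver, and the fish liver with the most, 1124, was also the one with the most Scd2. The 6 adipocyte markers summed to 28.8 CPM in fish liver 1123, the one with muscle fibre markers, and to 8.96 to 11.3 CPM in the other fish livers. In livers of the other diets they summed to 6.32 to 14.7 CPM, and up to 4 of the 6 were at 0. The part of these cells in the Scd2 difference was not tested. Elovl7 (chr13:108214404-108287105, plus strand) was near the limit of measurement, at 0.52 to 1.15 CPM in fish oil, 0.24 to 0.45 in soy, 0.32 to 0.43 in control and 0.14 to 0.88 in lard. Its log2 fold change was 0.97 ± 0.36 against the mean of soybean oil and lard (unadjusted p = 0.0155, edgeR adjusted p = 0.223). The filter on low counts kept Elovl7 in liver mainly through the fish livers, so this difference is not support for a rise.

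Elovl1 (chr4:118428093-118432953, plus strand), which lengthens very long saturated chains for sphingolipids, was the steadiest of the 10. It stayed between 19.50 and 26.34 CPM in all 15 livers, and its largest log2 fold change between any pair of diets was -0.16 ± 0.11, in fish oil against lard (edgeR adjusted p = 0.699).

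Related enzymes outside the 10 and the pathways around them were read from lists. Among 3 tested relatives (of 7 listed), Elovl6, which lengthens palmitate, fell 2.31-fold in fish oil against the mean of soybean oil and lard (log2 -1.21 ± 0.23, edgeR adjusted p = 0.0412) and against lard (log2 -1.65 ± 0.26, adjusted p = 0.0328). Of all genes 0.344% were called in the first comparison and 0.203% in the second. With each of the 15 livers left out in turn, the first call was lost in 12 fits (highest adjusted p = 0.187), all but those without soy liver 1065, control liver 1095 or fish liver 1125, and the second in 5, without fish livers 1067, 1123 or 1124 or lard livers 1101 or 1130 (highest 0.123). Elovl6 had 87.49, 123.6, 94.54 and 196.9 CPM in fish livers, the highest again in mouse 1125, and 297.8 to 488.0 CPM in lard. Scd1, the main liver stearoyl-CoA desaturase, had 2818, 8699, 7681 and 6477 CPM in fish oil and 7282 to 16800 in lard (log2 -1.003 ± 0.39, adjusted p = 0.408). Of 16 SREBP-1 and LXR regulators and lipogenic targets, Acly (-1.57 ± 0.30, adjusted p = 0.0429) and Acacb (-1.44 ± 0.26, adjusted p = 0.0381) fell in fish oil against lard and 0 rose, where 0.203% of all genes were called. The median log2 fold change of the list was -0.48 beside 0.01 over all genes. The call of Acly was lost in 9 of the 15 left-out fits and that of Acacb in 8 (highest adjusted p = 0.173 for each), and in 7 fits both were lost: without fish livers 1067, 1123 or 1124, lard livers 1100, 1101 or 1130, or control liver 1120. Srebf1, the gene of SREBP-1c, lay at 183.9 to 365.9 CPM in fish livers and 128.6 to 630.3 CPM in the other livers.

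No gene passed in fish oil against the mean of soybean oil and lard in the other lists. For 10 tested partners of the elongation cycle and electron donors the median log2 fold change was -0.05, and the smallest p belonged to Tecr (-0.43 ± 0.13, edgeR adjusted p = 0.170), the last reductase of the cycle. For 10 genes of peroxisomal chain shortening the median was 0.11. For 11 genes of acyl-CoA synthesis and phospholipid incorporation it was -0.15, led by Mfsd2a (-0.82 ± 0.19, adjusted p = 0.0762), a carrier of lysophospholipids of long omega-3 chains. For 15 genes of PPAR-alpha and its targets, which fatty acids activate, it was 0.59, with the fatty acid hydroxylase Cyp4a31 (1.48 ± 0.42, adjusted p = 0.147) and Vnn1 (0.98 ± 0.28, adjusted p = 0.153) at the smallest p. For 8 regulators of sex-biased liver expression it was 0.05, led by Esr1 (-0.72 ± 0.25, adjusted p = 0.212), and for 12 clock genes 0.22, led by Nr1d1 (0.72 ± 0.33, adjusted p = 0.309). The male-biased and female-biased lists gave 0.85 and -0.47, led by Serpina1e (2.13 ± 0.54, adjusted p = 0.107) and Cyp17a1 (-2.52 ± 0.59, adjusted p = 0.0834).

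Most of these genes were higher in liver than in hindlimb muscle, the only other tissue compared. Compared by edgeR over all 29 libraries, 9 of 10 differed between liver and muscle, as did 86.6% of all 14150 genes tested. This fit treated the libraries as separate, although 13 of the 16 mice gave both tissues. There were 8 higher in liver (background 42.7%): Elovl2 by a log2 fold change of 8.79 ± 0.23, Fads2 by 7.60 ± 0.21, Fads1 by 5.79 ± 0.18, Elovl3 by 5.17 ± 0.35, Elovl5 by 4.97 ± 0.14, Fads6 by 3.30 ± 0.12, Elovl1 by 1.93 ± 0.09 and Fads3 by 1.40 ± 0.25. Scd2 was 4.07-fold lower in liver (-2.03 ± 0.15; background for lower 43.9%). Elovl7 was low in both tissues and did not pass (-0.46 ± 0.34, adjusted p = 0.215).

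Per length, on the authors' RPKM scale, the median liver level ran from Fads2 (400.9) through Fads1 (160.3), Elovl2 (147.4), Elovl5 (135.7), Fads6 (27.5), Elovl1 (11.6), Fads3 (9.36), Elovl3 (5.90) and Scd2 (1.36) to Elovl7 (0.0719). Fads2 was above Fads1 in 15 of 15 livers, but the exon length behind its RPKM was 1508 bases from a counted region shorter than the GENCODE M21 gene, so its place rests on that length. Fads1 was above Elovl2 in 11 of 15 livers, Elovl2 above Elovl5 in 12, and Elovl1 above Fads3 and Fads3 above Elovl3 in 8 each, so these neighbours were not separated. In muscle the order was Scd2 (4.97), Elovl5 (4.32), Fads3 (3.64), Elovl1 (2.87), Fads1 (2.83), Fads6 (2.81), Fads2 (1.90), Elovl2 (0.336), Elovl3 (0.207) and Elovl7 (0.0769). Scd2 was above Elovl5 and Elovl1 above Fads1 in 7 of 14 muscles each, and Fads2 above Elovl2 in 14 of 14.

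**Figure D3:**
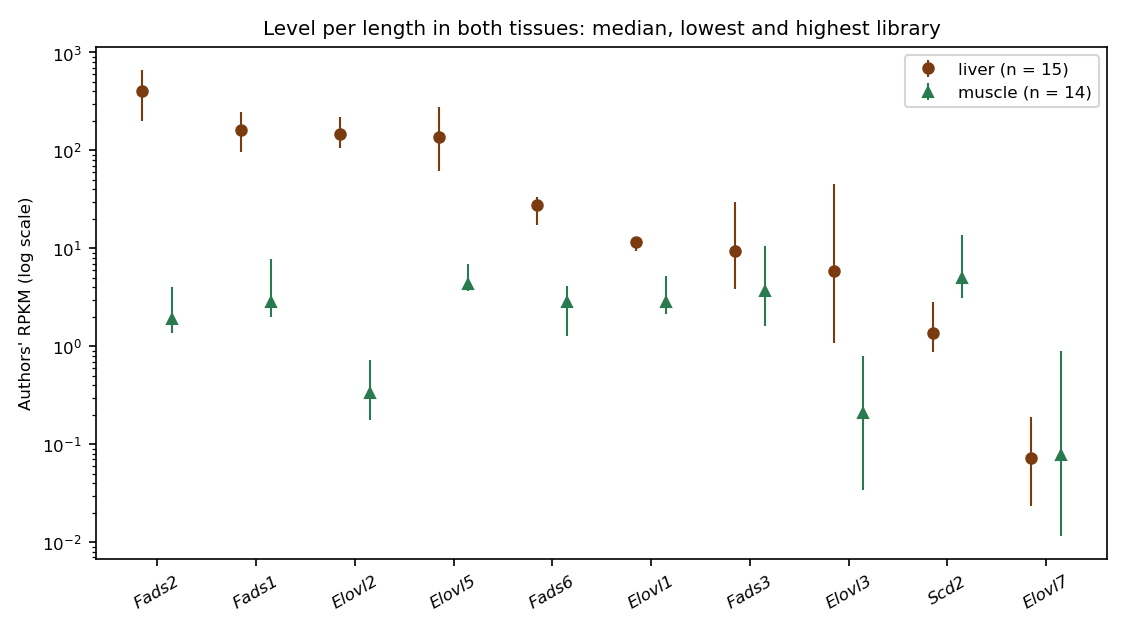
Authors' RPKM (vertical axis, log scale) of the 10 genes in 15 livers (circles) and 14 muscles (triangles), with the median and bars from the lowest to the highest library. Fads2, Fads1, Elovl2 and Elovl5 lie far above their muscle levels, Scd2 below its muscle level, and Elovl7 is near the bottom of the scale in both.

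In muscle no comparison of diets called any of the 10 genes (edgeR adjusted p under 0.05). In 6 of the 7 comparisons of diets 0.0% of 13104 genes passed, and 0.00763% did in fish oil against control. The comparison of fish oil with the mean of soybean oil and lard had no call with other tools: the DESeq2 Wald test and limma-voom called 0 of the 10 as well. At an unadjusted p under 0.05 there was 1 of 10 (background 3.32%), Elovl7. Fads2, so high in liver, had 3.90, 2.95, 3.25 and 2.70 CPM in control muscle, 2.69, 5.45 and 3.42 in soy, 6.50, 2.18 and 2.54 in fish oil, and 3.14, 2.88, 4.04 and 2.81 in lard. Its highest and its lowest value were both in fish muscles, and the log2 fold change was 0.07 ± 0.31. Elovl5 had 17.98, 13.53 and 21.78 CPM in fish oil, 11.63, 22.41 and 11.88 in soy, 12.54 to 15.25 in control and 13.23 to 16.75 in lard (0.22 ± 0.16, unadjusted p = 0.190). Hsd17b12, the ketoreductase of the elongation cycle, was the gene most like Elovl5 over the 14 muscles (r = 0.88).

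**Figure D4:**
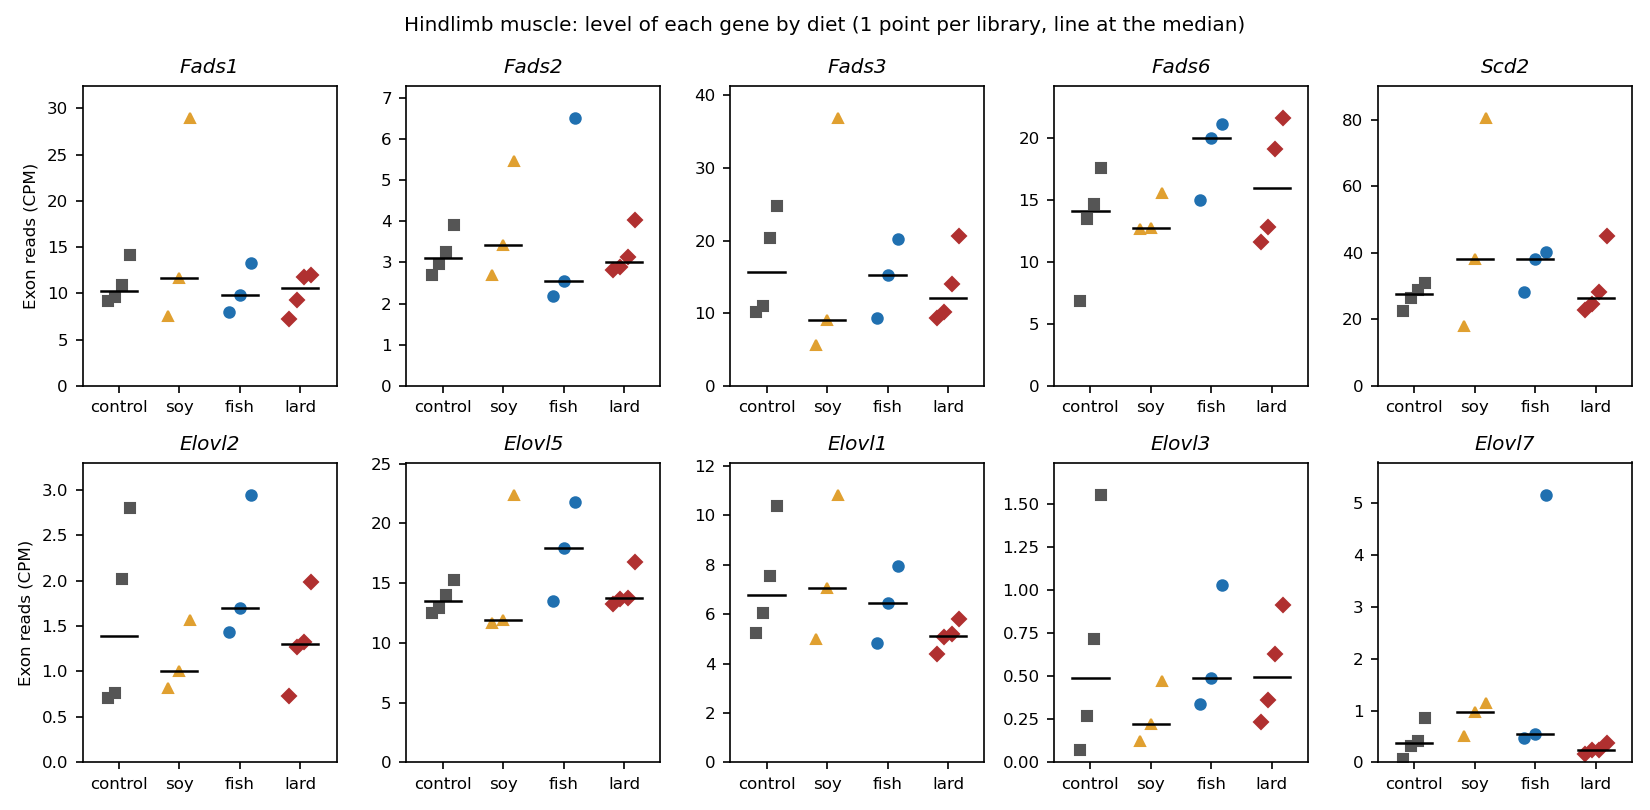
Level of each gene in CPM (vertical axis, linear and starting at 0) in 14 muscles by diet, with 1 point per library and a line at the median. Soy muscle 1073 is the highest point for Fads1, Fads3, Elovl1, Elovl5 and Scd2, and fish muscle 1124 at 5.17 CPM is the highest for Elovl7.

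The difference of Elovl7 in muscle between fish oil and the mean of soybean oil and lard rested on fish muscle 1124. It had 0.55, 0.48 and 5.17 CPM in fish oil, 0.50, 1.14 and 0.97 in soy, 0.33, 0.07, 0.85 and 0.42 in control, and 0.37, 0.24, 0.16 and 0.24 in lard. All lard muscles were below all fish muscles (as for 8.87% of all genes) and all soy muscles (5.91%). The log2 fold change was 1.99 ± 0.64 (unadjusted p = 0.00775, edgeR adjusted p = 0.9998), and 0.08 ± 0.56 without fish muscle 1124. That muscle held 231.5 CPM of 6 keratinocyte and sebaceous gland markers with none of them at 0, against 2.36 to 36.1 CPM in the other 13 muscles, where up to 4 of the 6 were at 0. It also held 20.9 CPM of Elovl4, an elongase of very long chains known from skin and retina, and 15.0 CPM of the skin desaturase Scd3, whose next highest muscles, both lard 1102, had 3.004 and 1.32 CPM.

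Soy muscle 1073 was highest for Fads1, Fads3, Elovl1 (10.84 CPM), Elovl5 (22.41 CPM) and Scd2. Fads3 had 36.88 CPM there, against 5.63 and 9.14 in the other soy muscles, 20.18, 9.38 and 15.34 in fish oil, 10.19 to 24.74 in control and 9.35 to 20.70 in lard. Scd2 had 80.56 CPM there, against 18.01 and 38.25 in the other soy muscles, 40.43, 38.27 and 28.14 in fish oil, 22.67 to 31.03 in control and 22.81 to 45.22 in lard. In the same library 6 adipocyte markers summed to 1514 CPM (220.7 to 852.3 in the other muscles, none of the 6 at 0 in any) and 6 Schwann cell and myelin markers to 373.2 CPM (50.8 to 237.2, none at 0). Over the 14 muscles the genes most like Fads3 were Cebpa (r = 0.95), Chst1 (r = 0.94) and the fat droplet gene Plin1 (r = 0.94), and those like Scd2 included Ptprs (r = 0.89) and Ptpdc1 (r = 0.88); Plin1 is itself among the markers. Without soy muscle 1073 the log2 fold change in fish oil against the mean of soybean oil and lard moved from -0.04 ± 0.45 to 0.48 ± 0.35 for Fads3 and from -0.07 ± 0.30 to 0.21 ± 0.24 for Scd2. The part of fat and nerve in these levels was not tested.

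**Figure D5:**
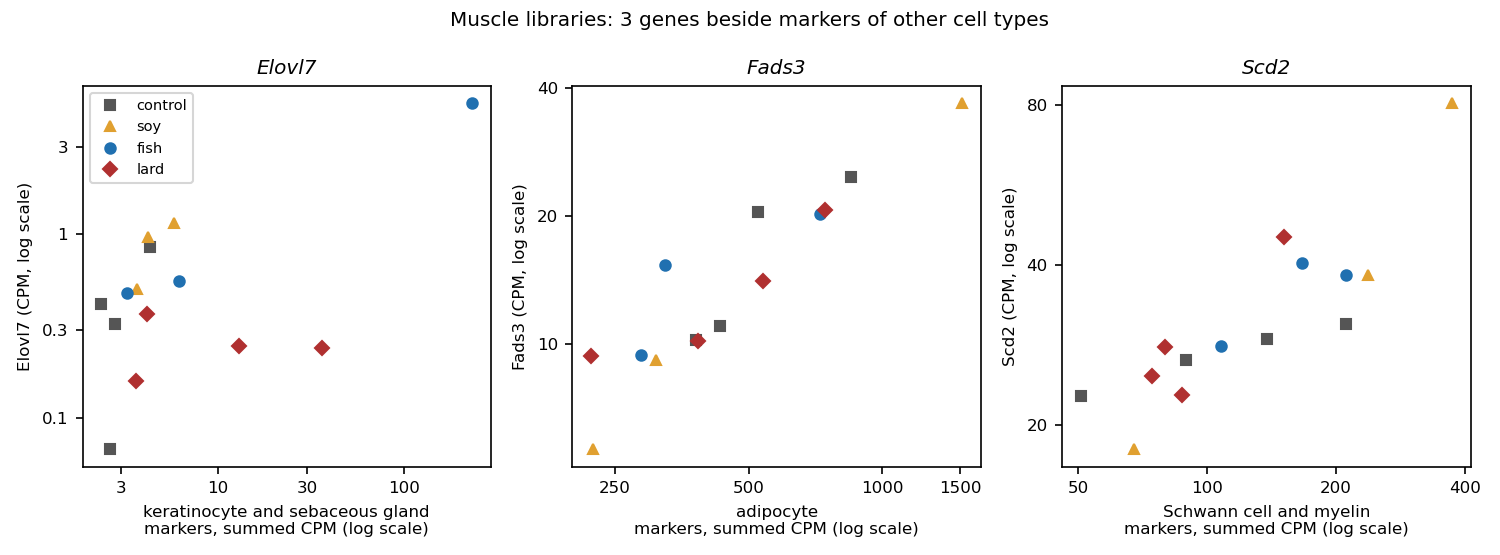
Summed CPM of 6 markers of another cell type (horizontal axis, log scale) against the CPM of Elovl7, Fads3 and Scd2 (vertical axis, log scale) in 14 muscles by diet. Fish muscle 1124 is alone at the top right for Elovl7 at 231.5 CPM of skin markers, and soy muscle 1073 at the top right for Fads3 and Scd2.

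The remaining genes were compared between fish oil and the mean of soybean oil and lard. Fads1 had 28.94 CPM in soy muscle 1073 and 7.27 to 14.18 CPM in the other 13 muscles (log2 -0.30 ± 0.30 in fish oil against the mean of soybean oil and lard). Fads6 lay at 15.02 to 21.14 CPM in fish oil and 6.83 to 21.62 CPM elsewhere (0.29 ± 0.23), Elovl1 at 4.39 to 10.84 CPM in all muscles (-0.01 ± 0.22), Elovl2 at 0.71 to 2.95 CPM (0.67 ± 0.46) and Elovl3 at 0.07 to 1.56 CPM (0.60 ± 0.68). Genes most like Fads1 were Ctnnal1, Pygb and Ntn1 (r = 0.90, 0.89 and 0.87; Spearman rho = 0.82, 0.71 and 0.76), those most like Fads6 were Zfp867, Zfp597 and Rai1 (r = 0.88, 0.87 and 0.87; rho = 0.82, 0.86 and 0.58), and those most like Elovl1 were Bet1l, Dpp7 and Tmem176b (r = 0.91, 0.88 and 0.87; rho = 0.84, 0.91 and 0.87). Among reads outside exons, 5 of the 10 genes could be tested in muscle and none passed (0.0% of 10889 genes did). The pathway lists held no call in fish oil against the mean of soybean oil and lard in muscle either. The smallest p-values in them were those of Fgf21, a PPAR-alpha target (5.59 ± 1.11, edgeR adjusted p = 0.649), and the cytochrome b5 reductase Cyb5r2 (0.70 ± 0.19, adjusted p = 0.958).

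Whether the fish oil difference itself was unlike in the 2 tissues was tested in 1 fit of all 8 groups. That fit also did not pair the libraries of the same mouse. None of the 10 genes passed (edgeR, 0.0495% of 14150 genes did), and 4 had an unadjusted p under 0.05 (background 9.39%). In liver the fish oil difference was lower than in muscle by a log2 fold change of -1.22 ± 0.44 for Elovl2 (adjusted p = 0.391), -0.72 ± 0.29 for Elovl5 (adjusted p = 0.450) and -0.84 ± 0.39 for Fads2 (adjusted p = 0.517), and higher by 0.73 ± 0.35 for Scd2 (adjusted p = 0.524). After adjustment the liver and muscle differences were not shown to be unlike for any of the 10 genes.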

How the data were processed

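Liver and hindlimb muscle RNA of 16 mice was sequenced as 29 libraries. The authors deposited read counts per gene (exon, unique and all gene reads) and RPKM, per the file headers, and p-values, not adjusted, of a t-test on transformed RPKM, per the file headers. The submitters' processing notes name FastQC and GRCm38, and the aligner, counter, annotation version and use of strand are not stated in what was used here. Control liver 1071 and fish muscle 1125 were discarded by the authors for clustering and lower RNA integrity, per the series text. No other per-sample column was used. All 10 genes were found by Ensembl ID; all their exon reads were unique apart from Scd2 (lowest 98.5%).

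CPM was computed from exon counts over the library's total. The main test was edgeR 4.0.16 in R 4.3.3 (quasi-likelihood F test, TMM scaling, filterByExpr with a minimum count of 10, all diets of a tissue in 1 fit), with Benjamini-Hochberg adjustment over 12788 liver or 13104 muscle genes and a threshold of 0.05. The log2 CPM used for correlations carried a prior count of 2, which was not set for the fold changes. The SE of a log2 fold change was its absolute value divided by the square root of its F statistic, not estimated directly. DESeq2 1.42.0, limma 3.58.1 and the other alternatives are given in the closing part. Within groups, no pair of libraries agreed within sampling noise (lowest chi-square per degree of freedom 10.9 over 39 pairs). Replicates are separate mice, per the series text. Total counts per library set the counting precision; Elovl7 is the least precise gene.

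Named genes were all 10 members, up to 4 passing genes per pathway list and comparison (otherwise the 2 of smallest p), and for members of at least 5 mean CPM the 3 genes of highest Pearson r. Members and lists were chosen with earlier results of these data known. Some results that the rule would name are not reported here.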

Additional observations from a re-analysis of the deposited data

Results flagged for a closer look

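In 50 groups of 4 libraries (1 gene, diet and tissue each), 4 held a library whose gap to its nearest neighbour exceeded Dixon's 95% limit, and chance flags about 1 in 20 groups. Fads2 in fish oil livers was 717.1 CPM in mouse 1125, against 352.3 CPM in the next and 326.1 CPM in the lowest. Fads3 in lard livers was 105.1 CPM in mouse 1130, against 63.46 CPM in the next. Scd2 in lard livers was 5.59 CPM in mouse 1100, against 8.04 to 8.30 CPM in the others. Elovl5 in lard muscles was 16.75 CPM in mouse 1100, against 13.23 to 13.76 CPM in the others.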

How the results depend on the processing

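The number of the 10 genes called in liver depended on the tool and on single mice. With the DESeq2 Wald test it was 4 in fish oil against the mean of soybean oil and lard (2.21% of all genes). It was 1 against soy (5.75%), 4 against lard (1.28%) and 3 against control (1.29%), and 1 in lard against control. With limma-voom it was 1 in fish oil against lard (0.235% of all genes) and 1 in lard against control. With no filter on low counts it was 1 in lard against control and 1 in reads outside exons. With only the diets compared it was 3 in fish oil against lard (1.1% of all genes). Without soy livers 1073 and 1159 it was 2 in fish oil against lard, 0 in soy against control, 1 in fish oil against control and 1 in lard against control. Leaving out each liver gave 0 to 2 in fish oil against the mean, 0 to 1 against soy, 0 to 2 against lard and 0 to 1 against control, 0 to 1 in lard against soy, 0 to 2 in soy against control and 0 to 1 in lard against control; the cause was not tested. The share of all genes called moved with the fit too. A count or call given here without that share is not read as a result about the 10 genes. In fish oil against soy it was 0.0938% with all livers, 16.4% without soy liver 1065 and 5.75% with the DESeq2 Wald test. In fish oil against lard it was 0.203% with all livers and 0.102% without fish liver 1125. Besides mouse 1125, calls were gained without soy liver 1065 (Scd2 against soy, adjusted p = 0.017, where 724 of all genes were called higher and 1368 lower, beside 9 and 3 with all livers), soy liver 1141 (Scd2 against soy, 0.0449, with 322 and 1007; Elovl2 against lard, 0.0475, and control, 0.0416; Elovl3 in lard against control, 0.0375) and control liver 1095 (Fads1 against lard, 0.0425). No alternative called any of the 10 between diets in muscle.

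Values near 0 turned direction. Fads6 in fish oil against soy liver (0.01) was -0.00112 with DESeq2 size factors, -0.00116 with the DESeq2 Wald test, -0.000623 with unique reads and -0.19 without both soy livers, and -0.0769 to 0.101 with each liver left out. Fads3 ranged from -0.618 to 0.0865 against soy and from -0.37 to 0.43 against control, and Fads2 outside exons from -0.233 to 0.01996. In muscle, against the mean of soybean oil and lard, limma-voom gave -0.0635 for Fads2, 0.0868 for Fads3 and 0.0303 for Scd2, and leaving out each muscle gave -0.63 to 0.35, -0.34 to 0.48 and -0.24 to 0.21, and -0.16 to 0.15 for Elovl1. Without fish muscle 1124 and soy muscle 1073, an alternative chosen after seeing the data, Fads1 was 0.17, Fads3 0.50 and Scd2 0.37.

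Library numbers in the labels did not pair the samples: the deviations of same-numbered libraries correlated from -0.16 to 0.16 in liver and -0.28 to 0.25 in muscle, and 3 of 15 livers and 2 of 14 muscles correlated best with their own number. With that number as a replicate block the count of calls stayed at 1 in soy against control liver and 0 elsewhere, and muscle Fads2 was -0.0479 and Fads3 0.0541. With the animal as a replicate block, over the 13 mice with both tissues, 9 genes differed between tissues and 0 in the tissue difference. Depth limits Elovl7, which lay under 1.15 CPM in all livers.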
